A study of Mus musculus with 2 samples.

Results

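Immunoglobulin RNA in a dissociated tumor can come from B cells and plasma cells, but it is also counted in droplets of other cells. The transcripts followed here were those of 10 genes of the 32285 listed in both count matrices: the kappa light chain constant gene Igkc, the lambda constant genes Iglc1 and Iglc2, the heavy chain constant genes Ighm, Ighg1, Ighg2b, Ighg2c, Ighg3 and Igha, and Jchain, which encodes the joining chain of polymeric IgM and IgA. These genes were chosen by their symbols and were selected on measured values, because Ighg2b and Igkc had high log2 ratios between the libraries in macrophage-like droplets. Those ratios are therefore given as a description. At least 1 unique molecular identifier (UMI, 1 counted RNA molecule) of a member was held by 2423 of 16208 Lmo7+/+ droplets and by 1774 of the 15163 droplets labelled Lmo7-/-.

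MC38 colon carcinoma cells, an established mouse line, had been grown under the skin of C57BL/6 females inoculated at 6 to 8 weeks of age. Hosts were wild type (Lmo7+/+) or carried a global deletion of Lmo7, an adaptor with a LIM domain (Lmo7-/-), and the implanted MC38 cells were the same in both. Live sorted cells gave 1 library per genotype, so that no difference between genotypes has a replicate check, and how many tumors entered a library was not given. All intervals below are exact 95% intervals and cover counting error only.

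A B cell joins a variable segment to a constant region in each of its heavy and light chain genes. It first makes mu heavy chains (Ighm), can later switch to a gamma (Ighg) or alpha (Igha) constant gene, and as a plasma cell fills much of its RNA with 1 heavy and 1 light chain. Macrophages and T cells are not known for making antibody, whereas macrophages carry Fc receptors that bind it.

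Of the 10 loci in the GENCODE M21 annotation of build GRCm38, the 6 heavy chain genes lay along the minus strand of chromosome 12, from Igha (113254830 to 113260236) to Ighm (113418558 to 113422730). Ighg2b (113302965 to 113307933) and Ighg2c (113285325 to 113288932) were next to each other among the members. Igkc occupied 70726435 to 70726966 on the plus strand of chromosome 6, within the noncoding gene Gm30211, which had 12 UMIs in all. Jchain lay on the minus strand of chromosome 5 (88519809 to 88527891), and Iglc1 (19061618 to 19062071) and Iglc2 (19198396 to 19200351) lay on the minus strand of chromosome 16. A UMI counted for a constant gene does not tell the secreted from the membrane form, nor a rearranged from a sterile transcript.

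Because reads of similar genes can be shared, the last 90 coding bases before the stop codon of each gamma gene's shorter transcript are shown, with capitals marking bases that differ from Ighg2b at the same distance from the stop. The windows are on the minus strand of GRCm38, at chr12:113306392-113306481 for Ighg2b, chr12:113287392-113287481 for Ighg2c, chr12:113328979-113329068 for Ighg1 and chr12:113359668-113359757 for Ighg3, in the exon of the last constant domain.
Ighg2b: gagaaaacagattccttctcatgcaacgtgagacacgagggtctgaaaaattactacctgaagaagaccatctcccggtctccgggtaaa
Ighg2c: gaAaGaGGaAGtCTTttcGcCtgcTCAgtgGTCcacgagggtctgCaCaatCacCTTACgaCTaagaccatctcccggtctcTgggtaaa
Ighg1: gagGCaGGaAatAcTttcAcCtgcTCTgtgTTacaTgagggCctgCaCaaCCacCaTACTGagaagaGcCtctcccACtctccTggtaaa
Ighg3: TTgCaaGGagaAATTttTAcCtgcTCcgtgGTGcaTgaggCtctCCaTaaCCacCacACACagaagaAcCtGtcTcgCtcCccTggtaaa
In this window 28 bases of Ighg2c, 31 of Ighg1 and 36 of Ighg3 differed from Ighg2b. Over the whole aligned coding sequence, Ighg2b and Ighg2c were 85.9% identical, the closest pair of heavy chain genes, and Ighg2b and Igha 54.2%. The counts kept the gamma genes apart in droplets dominated by 1 of them: 10 droplets led by Ighg2b held 2321 UMIs of it and 5 of Ighg2c, and 6 led by Ighg2c held 5421 UMIs of it and 0 of Ighg2b.

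The libraries held 98582479 and 80648345 UMIs, and 13542 and 11860 droplets passed a filter of at least 500 genes and 1000 UMIs with at most 15% mitochondrial UMIs. Lmo7 itself had 1414 UMIs in the Lmo7+/+ library and 922 in the other, at 14.3 and 11.4 UMIs per 1000000 (CPM), and 8 and 13 UMIs in macrophage-like droplets. Endothelial-like droplets held 18 and 12, at 36.6 CPM (21.7 to 57.8) and 29.2 CPM (15.1 to 51.0), so Lmo7 RNA was also counted outside tumor cells in the library labelled Lmo7-/-. Tumor cell-like droplets held most Lmo7 UMIs, at 19.3 and 15.1 CPM. The label Lmo7-/- thus could not be checked from these counts, and it is used here as a label. The libraries had 279 barcodes in common, 1 of them on a droplet rich in member UMIs in the Lmo7+/+ library.

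Member UMIs made up 0.0411% of all UMIs in the Lmo7+/+ library (40530) and 0.0215% in the library labelled Lmo7-/- (17369). Most droplets that carried any held very few of them. A single member UMI was found in 1602 and 1102 droplets, 2 to 9 in 775 and 640, 10 to 19 in 18 and 20, and 20 or more in 28 and 12. A droplet was called Ig-rich when it held at least 20 member UMIs that made up at least 0.5% of its UMIs. There were 26 such droplets in the Lmo7+/+ library and 11 in the other, or 1.60 and 0.725 per 1000 droplets. The Ig-rich droplets with fewest member UMIs held 29 and 26. Just outside the limits, 3 droplets had 38, 23 and 28 member UMIs at 0.447%, 0.0957% and 0.290%, and the highest droplets under 20 had 19 and 15.

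These 37 droplets held 89.7% of the member UMIs of the Lmo7+/+ library and 80.9% of those of the other. The share depended on the gene. Igkc had 25210 UMIs in the Lmo7+/+ library, 96.8% of them in Ig-rich droplets, and 10277 in the library labelled Lmo7-/-, 95.8% of them there. For Ighm it was the reverse, with 3046 and 2744 UMIs spread over 1704 and 1487 droplets and only 0.886% and 3.32% of them in Ig-rich droplets. The other well counted members followed Igkc, with 98.8% and 98.2% of Ighg2c UMIs (3284 and 2221) and 87.6% and 91.5% of Ighg2b UMIs (691 and 1875) in those few droplets. In each library 1 droplet alone held 50% or more of the Ighg2b UMIs, and 1 droplet did so for Ighg2c.

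Several members differed between the libraries, and for Ighg1 and Iglc1 over 50% of the Lmo7+/+ UMIs were in 1 droplet. Ighg1 had 1598 UMIs in the Lmo7+/+ library, 885 of them in 1 droplet, and 0 in the other library, a log2 ratio of -8.77 or lower against a floor of 3 counts. Igha had 4756 UMIs against 15, 4598 of them in 14 Ig-rich droplets, and outside Ig-rich droplets 158 against 11. Iglc1 had 525 against 5 UMIs, with 317 in 1 droplet, and Iglc2 had 32 against 23. Jchain had 1385 against 190 UMIs, and Ighg3 had 3 against 19, none of them in Ig-rich droplets. Only Ighm, at 30.9 CPM (29.8 to 32.0) and 34.0 CPM (32.8 to 35.3), was carried by many droplets at once: 415 and 346 droplets were needed to reach 50% of its UMIs.

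The Ig-rich droplets mostly paired Igkc with a single heavy chain gene. Every one contained kappa and heavy chain UMIs, and in 36 of 37 a single heavy chain gene gave at least 95% of the heavy chain UMIs.

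**Figure D1:**
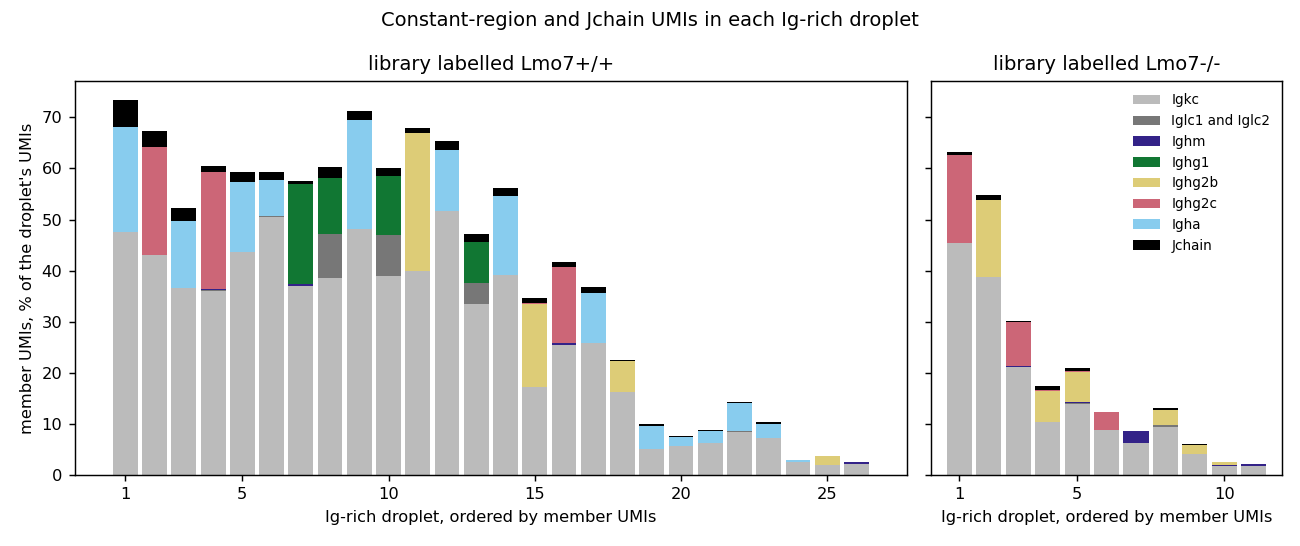
Stacked bars give the percentage of each Ig-rich droplet's UMIs that came from the members, coloured by gene, for the 26 droplets of the Lmo7+/+ library (left) and the 11 of the library labelled Lmo7-/- (right), ordered by member UMIs. Nearly every bar combines Igkc (grey) with 1 heavy chain colour. Light blue Igha segments are visible in the left panel only, and the tallest bar reaches 73.5%.

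Member UMIs took a median of 49.7% of the droplet in the Lmo7+/+ library (2.60% to 73.5%) and 12.98% in the other (2.15% to 63.2%). The droplet with most of them, in the Lmo7+/+ library, held 3653 Igkc, 1567 Igha and 412 Jchain UMIs among 7669. In the library labelled Lmo7-/- the highest held 3123 Igkc, 1178 Ighg2c and 44 Jchain UMIs among 6879.

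By the leading heavy chain, the Lmo7+/+ library had 14 Igha, 4 Ighg1, 4 Ighg2b, 3 Ighg2c and 1 Ighm droplets, and the library labelled Lmo7-/- had 6 Ighg2b, 3 Ighg2c, 2 Ighm and no Igha or Ighg1 droplets. Jchain, whose product links IgA and IgM units, was present in 13 of the 14 Igha droplets with 18.6 UMIs per 100 heavy chain UMIs. It was also counted with the gamma genes: Ighg1 droplets had 9.04, Ighg2c droplets 10.3 and Ighg2b droplets 3.96 per 100 in the same library, and 2.33 (Ighg2c) and 7.62 (Ighg2b) in the other. None of the 3 Ighm droplets contained Jchain. Kappa exceeded heavy chain in each isotype, with 1.45 to 4.80 Igkc UMIs per heavy chain UMI.

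Genes of antibody-producing cells were high in these droplets. Among the 25 that passed the filter, the 10 genes without immunoglobulin names that were highest against all other droplets were, in order, Mzb1, Cd79a, Slpi, Derl3, Ly6c2, Pou2af1, Trp53inp1, Fam214a, Sfn and St6gal1. Mzb1, an endoplasmic reticulum protein of antibody-producing cells, stood at 1340 CPM against 0.0936. Derl3, of the degradation pathway of that compartment, was at 248 CPM against 0.720, and Pou2af1, a coactivator of immunoglobulin genes, at 347 against 4.96. Slpi came from 6 droplets with 631 UMIs in all. Of the 14 plasma cell markers, all 14 were detected in the 37 droplets and higher than in the rest, and 14 of 26 and 7 of 11 droplets had at least 3 of them. Of the 16 B cell markers, 13 were detected and 12 were higher; Fcer2a, Cr2 and Spib were at 0. The surface gene Ms4a1 was found in 1 Ig-rich droplet and Cd79a, the signalling chain of the B cell receptor, in 9 and 7.

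Not all Ig-rich droplets were of this kind, however. Mzb1 was counted in 12 of 26 and 6 of 11 of them. The 3 Ighm droplets had no Mzb1 but 4 or 5 Cd79a UMIs each and 4 to 7 B markers; the largest, in the library labelled Lmo7-/-, had 173 Igkc and 66 Ighm UMIs. Depth also differed between the libraries: 12 of the 26 droplets of the Lmo7+/+ library fell below the filter, with 10 under 500 genes, whereas all 11 of the other passed. The droplets had a median of 1441 and 2820 UMIs.

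Immunoglobulin genes were left out of the variable genes used for clustering, so the members did not place a droplet in a class directly. Their UMIs still counted in the filter and in the totals to which each droplet was scaled. No cluster was named B or plasma cell-like, although the paper describes a B cell cluster. The rule allowed a plasma name only with at least 3 plasma markers among a cluster's 10 leading genes. Of the 14 Ig-rich droplets of the Lmo7+/+ library past the filter, 10 fell in a small unnamed cluster of 54 droplets that was led by genes of several cell types (keratin genes, Siglech and Mzb1), and 4 in an unnamed cluster of low depth. The small cluster had a B marker score of 0.799, above its tumor marker score of 0.619, and stayed unnamed because it mixed lineages. Of the 11 in the library labelled Lmo7-/-, 5 were in the small cluster, 1 in the cluster of low depth, 3 in the macrophage-like and 2 in the tumor cell-like class. The 2 in the tumor cell-like class held 3178 and 270 member UMIs, mostly Igkc (2235 and 194) and Ighg2c (925 and 75). The 3 macrophage-like ones held 712, 73 and 51, with Ighg2b as the heavy chain of each.

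Light chain variable segments, of which reads were few, separated these droplets further. A variable kappa or lambda UMI was seen in 22 of 26 and 9 of 11 Ig-rich droplets, and the leading segment gave at least 62.0% of the droplet's light chain variable UMIs. The same pair of heavy chain gene and leading light segment recurred. Of the 14 Igha droplets, 8 were led by Igkv3-10, 3 by Igkv1-110, 2 by Iglv1 and 1 by Igkv6-17. The lead of Iglv1 rested on 3 and 1 UMIs, in droplets with 96 and 58 Igkc UMIs and 0 and 1 Iglc1 UMIs. That of Igkv3-10 rested on 42 UMIs in 1 droplet and on 1 to 5 in each other one. The 3 Igkv1-110 droplets were large (4673 to 7399 UMIs) and all contained Mzb1. The 8 Igkv3-10 droplets had 737 to 2578 UMIs, 4 were below the filter, 4 contained the macrophage gene C1qa and none contained Mzb1. Member UMIs in these 8 ranged from 1837 in 1 droplet to 41 in another.

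Ighg1 went with Iglv1 in 3 of its 4 droplets, which carried both Iglc1 (317, 145 and 43 UMIs) and Igkc (1385, 711 and 359 UMIs). Ighg2c went with Igkv4-50 in 2 droplets of the Lmo7+/+ library and with Igkv1-117 in 2 of the other, and Ighg2b with Igkv2-112 in 2 of the Lmo7+/+ library and Igkv3-7 in 3 of the library labelled Lmo7-/-. Of the 3 Igkv3-7 droplets, 2 were macrophage-like and 1 lay in the cluster of low depth, and 2 contained C1qa. Droplet barcodes were made of 3 segments of 8 bases. Among 41 pairs of droplets with the same heavy chain and leading light segment, 1 pair, both Ighg1 with Iglv1, had 2 of the 3 segments in common (6 of 24 bases differed), against 0 of 339 other pairs within a library. Most of the 41 pairs were among the 8 Igkv3-10 droplets. Whether recurring droplets were separate cells, parts of 1 cell or free RNA was not tested.

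Outside the Ig-rich droplets, Ighm was by far the most abundant member, with 3019 UMIs in 10.5% of the remaining droplets of the Lmo7+/+ library and 2653 in 9.77% of those of the other. Igkc had 813 and 427 UMIs in 3.71% and 1.71%. The remaining members were rare: Ighg2b was in 46 and 84 droplets, Ighg2c in 40 and 36, Igha in 129 and 11, Jchain in 29 and 7, Ighg1 in 17 and 0 and Ighg3 in 3 and 15.

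Among the named classes Ighm was highest in macrophage-like droplets. There it stood at 117 CPM (112 to 122) in the Lmo7+/+ library and 106 CPM (101 to 110) in the other, from 2060 and 1980 UMIs. T-like droplets followed with 71.9 (59.8 to 85.8) and 52.6 (43.4 to 63.3), dendritic-like with 62.2 (49.7 to 76.9) and 50.1 (36.5 to 67.0), and monocyte-like with 42.5 (36.8 to 48.8) and 42.3 (35.6 to 49.8). Fibroblast-like (10.9 and 9.06) and endothelial-like droplets (4.07 and 2.43) were lower, from at most 7 UMIs each. An unnamed cluster with genes of both T cells and macrophages (89 and 125 droplets) had 98.1 (75.7 to 125) and 79.0 (61.2 to 100.3). Tumor cell-like droplets, by far the largest class with 6301 and 4811 droplets, had only 1.28 (1.01 to 1.59) and 0.642 (0.426 to 0.927). Macrophage-like and tumor cell-like intervals lay far apart in both libraries, while those of T-like and dendritic-like droplets overlapped in each, as did dendritic-like and monocyte-like ones in the library labelled Lmo7-/-.

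**Figure D2:**
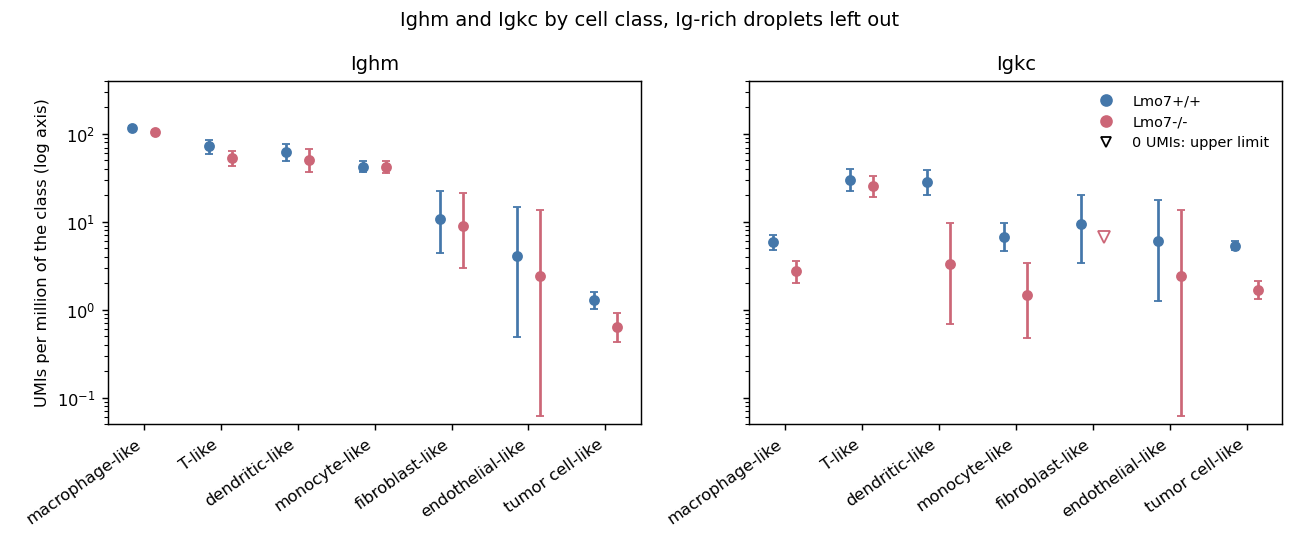
Points give Ighm (left) and Igkc (right) in UMIs per 1000000 UMIs of a class (log axis) by cell class and library without Ig-rich droplets, bars the exact 95% Poisson interval, and an open triangle the upper limit where no UMI was counted. Ighm falls from about 117 and 106 in macrophage-like to 1.28 and 0.642 in tumor cell-like droplets, while Igkc is highest in T-like droplets at 30.2 and 25.6.

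Igkc was ordered otherwise. It was highest in T-like droplets (30.2, 22.5 to 39.6, and 25.6, 19.3 to 33.3) and stood in macrophage-like droplets at 5.89 (4.81 to 7.14) and 2.72 (2.03 to 3.58). In tumor cell-like droplets it was 5.37 (4.80 to 5.99) and 1.67 (1.31 to 2.103), and the intervals of macrophage-like and tumor cell-like droplets overlapped in both libraries. Monocyte-like droplets had 6.79 and 1.47 CPM. The dendritic-like value of the Lmo7+/+ library, 28.5 CPM, came from 39 UMIs in 7 droplets, and 1 of those was the droplet with 38 member UMIs just outside the limits.

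Per droplet the contrast was the same. Macrophage-like droplets held 68.1 and 52.6 Ighm UMIs per 100 droplets and tumor cell-like ones 1.22 and 0.582, although the latter were deeper (median 6618 and 6185 UMIs against 5356 and 4472). Igkc was at 3.44 and 1.35 per 100 macrophage-like and 5.14 and 1.52 per 100 tumor cell-like droplets. Ighm therefore outnumbered Igkc 19.8 and 38.8 to 1 in macrophage-like droplets, 2.38 and 2.05 to 1 in T-like and 0.238 and 0.384 to 1 in tumor cell-like droplets of the same libraries. Below the filter it was 0.737 and 0.680.

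To compare droplets at an equal number of UMIs, every droplet was thinned to 1500 UMIs. Of 2902 and 3458 macrophage-like droplets, 15.1% (13.8% to 16.5%) and 12.8% (11.7% to 14.0%) then held Ighm, against 0.298% (0.174% to 0.476%) of 5708 and 0.163% (0.0657% to 0.337%) of 4282 tumor cell-like droplets. Without thinning the shares were 34.8% and 26.6% against 1.02% and 0.520%. T-like droplets had Ighm in 11.6% (8.69% to 15.02%) and 6.73% (4.76% to 9.19%), and monocyte-like ones in 4.60% and 5.14%. Thinning left out 125 and 308 macrophage-like, 593 and 529 tumor cell-like and 150 and 192 T-like droplets. For Igkc the macrophage-like share, 0.896% (0.586% to 1.31%) and 0.260% (0.119% to 0.493%), overlapped the tumor cell-like share of 1.02% (0.772% to 1.31%) and 0.187% (0.0807% to 0.368%), and no expression is read from it. T-like droplets exceeded the tumor cell-like share with 4.96% (3.10% to 7.49%) and 2.62% (1.44% to 4.35%). They were also shallower before thinning, with a median of 2155 and 2208 UMIs against 6618 and 6185. Droplets below the filter held Igkc in 2.78% (1.49% to 4.70%) and 1.98% (0.859% to 3.86%) after thinning. Thinning equalizes the number of UMIs only, and a part of the original depth in these shares was not tested. Unthinned, Igkc was in 2.87% and 1.06% of macrophage-like, 4.14% and 1.33% of tumor cell-like and 5.93% and 3.71% of T-like droplets.

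The composition of the member UMIs differed between classes as well. Ighm made up 91.4% (90.2% to 92.6%) and 90.4% (89.1% to 91.6%) of the member UMIs of macrophage-like droplets without Ig-rich ones, and Igkc 4.62% and 2.33%. In tumor cell-like droplets Igkc gave 61.2% (56.9% to 65.4%) and 59.3% (50.1% to 68.1%), beside its 67.1% and 70.1% among the Ig-rich droplets, and Igha gave 10.96% and 0.813%, against 12.6% and 0.0285% there. The 0.813% was 1 UMI of 123. Other members of tumor cell-like droplets lay further from the Ig-rich shares. Ighm gave 14.6% and 22.8% against 0.0743% and 0.648%, and Ighg2c 3.78% and 8.13% against 8.92% and 15.5%. Ighg2b gave 3.59% and 8.13% against 1.66% and 12.2%. T-like droplets lay between, with 62.6% and 63.1% Ighm and 26.3% and 30.7% Igkc.

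Beside Ighm, 3 B cell genes picked after the values were seen were nearly absent in the macrophage-like class, whereas other B markers were counted. The 3 genes Cd79a, Ms4a1 and Pax5 together had 6 and 5 UMIs in macrophage-like and 0 and 0 in T-like droplets, beside 2060 and 1980 or 124 and 113 of Ighm. Of the 16 B markers, those with at least 20 counts in macrophage-like droplets were Cd79b, Cd22, Bank1, Ralgps2, Spib and Cd72, and the whole list summed to 12401 and 15848 UMIs. The plasma markers Mzb1, Derl3 and Tnfrsf17 together had 49 and 38 UMIs in that class, at 2.77 and 2.03 CPM. The 155 and 99 UMIs of the 3 genes in tumor cell-like droplets were all of Cd79a and Pax5. Droplets with at least 2 of the 3 genes numbered 5 and 11, of which 0 and 3 were Ig-rich. The 8 others in the library labelled Lmo7-/- held 56 Igkc, 9 Ighm and 7 Ighd UMIs, the delta constant gene made together with Ighm by naive B cells. The 5 in the Lmo7+/+ library held 2 Igkc and 1 Ighm UMIs and were all tumor cell-like.

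Variable segments were counted too rarely to follow heavy chains. Ig-rich droplets had 7 and 2 heavy variable UMIs beside 10055 and 3993 heavy constant UMIs, and macrophage-like droplets outside them 1 and 0 beside 2143 and 2136. Whether the macrophage Ighm transcripts were joined to a variable segment could not be told, since heavy variable UMIs were rare even in the Ig-rich droplets. Light variable segments gave 527 and 133 UMIs beside 24940 and 9877 light constant UMIs in the Ig-rich droplets, and 0 and 2 beside 107 and 52 in macrophage-like ones.

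Within the macrophage-like class, Ighm differed between states, which were clusters at a resolution of 1.0 formed without immunoglobulin genes and are called by their leading gene. Taken alone, the Cd300e cluster stayed unnamed at that resolution, since Xcr1, a dendritic cell gene, was among its leading genes, and the Chil3 cluster was named monocyte-like. The Cd300e state, with the receptor genes Cd300e, Fcrl5 and Klra17, had most Ighm, at 228 CPM (210 to 246) and 224 CPM (211 to 238) in 499 and 1089 droplets. After thinning, 29.1% and 23.6% of its droplets held Ighm. The H2afx state followed with 133 (122 to 145) and 94.8 (82.8 to 108), the Chil3 state had 89.9 (75.8 to 106) and 61.8 (51.1 to 74.1), the H2-M2 state, which carried Il10 and Pf4, 86.2 (79.7 to 93.1) and 54.2 (48.9 to 59.9), and the Hspa1a state, with Mmp12 and Arg1, 65.9 (54.7 to 78.7) and 38.7 (30.6 to 48.2).

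**Figure D3:**
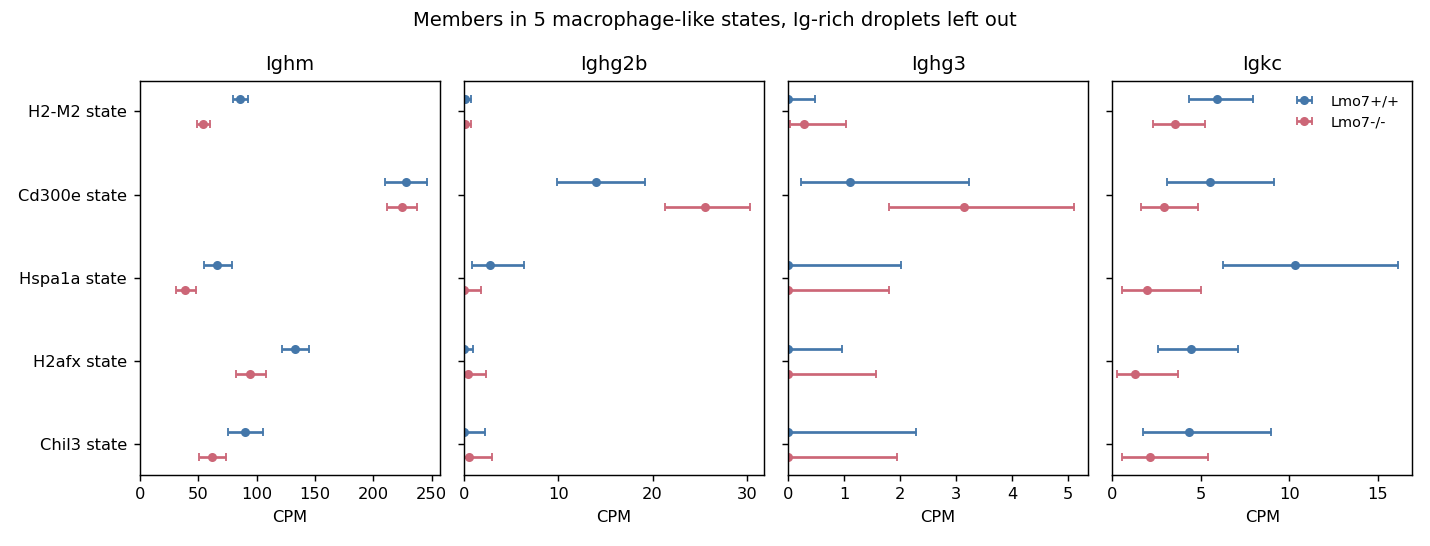
Points give Ighm, Ighg2b, Ighg3 and Igkc in UMIs per 1000000 (CPM) in 5 macrophage-like states and both libraries without Ig-rich droplets, with exact 95% Poisson intervals. Ighm peaks in the Cd300e state at 228 and 224 CPM, and Ighg2b (14.0 and 25.5 CPM) and Ighg3 (1.11 and 3.14 CPM) are concentrated there, while Igkc is not.

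Ighg2b was concentrated in the same state, which held 38 of 44 macrophage-like UMIs (Lmo7+/+) and 130 of 134 (labelled Lmo7-/-), or 14.0 CPM (9.91 to 19.2) and 25.5 CPM (21.3 to 30.3). Tumor cell-like droplets had 0.315 and 0.229 CPM of it. In each of the other 4 states it was at most 2.72 CPM. Ighg3 was rarer and similar in place, with 3 and 16 UMIs in the Cd300e state and 0 and 2 in the other 4. Igkc, by contrast, was at 5.53 (3.09 to 9.11) and 2.94 (1.65 to 4.86) there and highest in the Hspa1a state of the Lmo7+/+ library at 10.3 (6.23 to 16.2).

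Ighg2b and Ighm also met in the same droplets. After thinning, Ighg2b was found in 1.37% (0.503% to 2.95%) of 439 macrophage-like droplets with Ighm and 0.122% (0.0251% to 0.356%) of 2463 without it in the Lmo7+/+ library, and in 3.38% (1.90% to 5.51%) of 444 and 0.299% (0.137% to 0.566%) of 3014 in the other. For Igkc the shares overlapped, at 0.911% (0.249% to 2.32%) with and 0.893% (0.561% to 1.35%) without Ighm in the Lmo7+/+ library, and 0 of 444 (upper bound 0.827%) against 0.299% of 3014 in the other. Most Ighg2b droplets were in the Cd300e state, where Ighm was also highest.

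A further carrier of Ighm lay outside the named classes. In the small unnamed cluster, 29 droplets (17 and 12) had UMIs of Siglech, a surface lectin of plasmacytoid dendritic cells, and were not Ig-rich; they were singled out after their values were seen. Ccr9 was in 26 of them and Tcf4, a transcription factor of that lineage, in 29. Ighm was counted in 26 of the 29 with 87 UMIs, at 1473 CPM (1124 to 1896) in the Lmo7+/+ library and 1156 CPM (762 to 1682) in the other, and in no droplet above 10 UMIs. Igkc was in 14 with 58 UMIs, at 638 CPM (417 to 935) and 1370 CPM (937 to 1934), and the lambda constant gene Iglc3 in 14 with 27 UMIs. Cd79a, Ms4a1, Pax5, Ighd and Jchain were at 0 in all 29, Mzb1 had 9 UMIs in 7 of them, and no variable segment was counted. A further 24 droplets past the filter had Siglech in other clusters.

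In macrophage-like droplets, the sign of the Igkc difference between the libraries and the size of the Ighg2b difference turned on a handful of droplets. With all droplets, Igkc in macrophage-like droplets had 104 UMIs in the Lmo7+/+ library and 604 in the library labelled Lmo7-/-, a log2 ratio of 2.45 (2.15 to 2.77). The 3 Ig-rich droplets supplied 471, 48 and 34 of those 604. Without them 51 UMIs remained and the log2 ratio was -1.11 (-1.63 to -0.62). Ighg2b went from 2.99 (2.54 to 3.48), with 44 and 371 UMIs, to 1.52 (1.02 to 2.05), with 44 and 134. Within the Cd300e state, which made up 16.5% and 28.9% of the macrophage-like droplets, it was 0.87 (0.34 to 1.43), and in the other states together -0.45 from 6 and 4 UMIs. When classes were formed and named at a resolution of 1.0, which left the Cd300e cluster out of the macrophage-like class, the log2 ratio of Ighg2b was -0.79. With a more lenient filter on droplets, that of Igkc was -0.20.

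**Figure D4:**
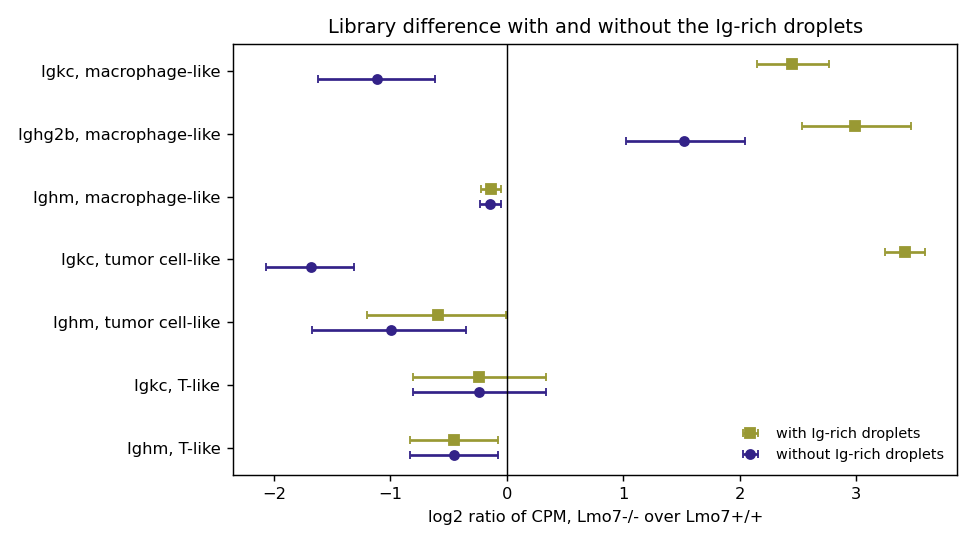
Log2 ratios of CPM, library labelled Lmo7-/- over Lmo7+/+, with exact 95% intervals, for members in macrophage-like, tumor cell-like and T-like droplets, with (squares) and without (circles) Ig-rich droplets. Igkc changes side of 0 in macrophage-like (2.45 to -1.11) and tumor cell-like droplets (3.42 to -1.68), and the T-like values coincide because that class has no Ig-rich droplet.

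Ighm hardly moved, at -0.14 (-0.23 to -0.05) with and without the Ig-rich droplets, against a median of -0.10 over all genes tested in macrophage-like droplets. Within the H2-M2, Hspa1a, H2afx and Chil3 states it was lower in the library labelled Lmo7-/-, by log2 ratios of -0.67, -0.77, -0.49 and -0.54, each with an interval below 0, while in the Cd300e state it was -0.02 (-0.16 to 0.12). The larger share of that state in the library labelled Lmo7-/- accompanied the nearly equal pooled level. Ighg3 had 3 and 18 UMIs, a log2 ratio of 2.50 (0.72 to 4.91), and Igha 21 and 0 without Ig-rich droplets, a log2 ratio of -2.89 or lower. With all droplets, Jchain had 3 and 27 UMIs.

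Of the members, 6 reached 20 counts over both libraries in macrophage-like droplets. With all droplets, 4 of them had a log2 ratio of at least 1, against 1.28% of the 11988 genes tested, and 1 of at most -1, against 1.28%. Without the Ig-rich droplets 5 were counted often enough, 2 were higher against 1.26% of 11986 genes and 2 lower against 1.28%, with a median of -0.14. The list contains genes selected on this very contrast, so nothing is read from these counts. No p-value is given, since there was 1 library per group.

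Tumor cell-like droplets moved likewise. Igkc had 324 and 2502 UMIs with all droplets, a log2 ratio of 3.42 (3.25 to 3.59), and 324 and 73 without the 2 Ig-rich ones, -1.68 (-2.07 to -1.31). Ighg2c went from 6.13 (20 and 1010 UMIs) to -0.53 (-1.79 to 0.63; 20 and 10 UMIs), and Igha had 58 UMIs against 1. In T-like droplets Igkc differed by -0.24 (-0.81 to 0.34) and Ighm by -0.45 (-0.83 to -0.07). The Igkc value was 0.22 with a stricter filter, -0.88 without droplets that held UMIs of 2 or more B or plasma markers, and -1.87 at a resolution of 0.2, where the T-like class took in 10 and 5 Ig-rich droplets. Igha was found in 13 and 9 T-like droplets at 8.12 (4.44 to 13.6) and 4.19 (1.92 to 7.95) CPM, and these 9 UMIs were 9 of only 15 in the whole library labelled Lmo7-/-. Library-wide the fewer Igkc and Igha UMIs of the Ig-rich droplets went with the lower Igkc and Igha of the tumor cell-like droplets, and their part in it was not tested. Igkc was also lower in macrophage-like and monocyte-like droplets labelled Lmo7-/-. Without Ig-rich droplets, however, it was 29.8 and 29.2 CPM below the filter and 16.1 and 12.7 CPM in the unnamed cluster of low depth.

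Receptors that bind antibody were measured in the same macrophage-like droplets, with Ig-rich ones left out. Of 12 genes of immunoglobulin binding and transport, 9 had at least 20 counts. Among these, 1 had a log2 ratio of at least 1 and 0 of at most -1, against 1.26% and 1.28% of all genes tested. Their median was 0.28, against -0.10 over all genes. The exception was Fcgr4, an activating receptor for IgG2a/c and IgG2b, at 410 and 928 CPM (1.18, 1.14 to 1.22). The inhibitory Fcgr2b stood at 715 and 960 CPM (0.43), Fcgr3 at 582 and 709 (0.28), and Fcer1g, the signalling chain of the activating receptors, at 3663 and 4501 (0.30). Pigr and Fcmr, which bind polymeric IgA or IgM, had 0 and 3 UMIs and 0 and 0. Fcrl5, one of the genes that lead the Cd300e state, was at 8.72 and 16.01 CPM (0.88, 0.59 to 1.17). Of 7 other constant and surrogate light chain genes only Ighd reached 20 counts, with 8 and 30 UMIs (1.82, 0.66 to 3.16). Of the B markers 6 of 16 were counted often enough, 0 higher and 1 lower, and of the plasma markers 10 of 14, with 0 past the limit either way. Of all genes, 1.26% were higher and 1.28% lower.

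Likeness in level across cell classes set the members apart. Over 14 sums of a class in a library (7 classes), the genes most like Igkc by Pearson correlation of log2(CPM + 1) were Gm14305 (0.80), Atr (0.77), Rab10 (0.77), Ncaph2 (0.75) and 4833417C18Rik (0.75). Without Ig-rich droplets these were replaced by Ints7 (0.88), Oxsr1 (0.88), Gmeb2 (0.87), Hist1h1e (0.87) and Atp6v1g2 (0.87). The genes most like Ighm, among them the leukocyte genes Rhoh, Cd48 and Laptm5, were Gpr65 (0.97), Rhoh (0.97), Cd48 (0.96), Acss1 (0.96) and Laptm5 (0.96). The points share libraries and differ in depth, and the correlations are a description.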

How the data were processed

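The authors deposited raw UMI counts per gene and droplet for 2 libraries, 1 per genotype, after their own cell calling. Per the labels, processing used Cell Ranger 2.1.1 and mm10, although the file headers name another version of the counting software, which was not resolved. Barcodes had 24 bases in 3 segments of 8, and each barcode is called a droplet here. The paper names a 10x Chromium system, and the platform was not resolved from the barcodes. The files also hold gene names and barcodes, deposited as text. The 10 members and all lists were chosen with earlier results of these data known.

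Droplets with at least 500 genes, 1000 UMIs and at most 15% mitochondrial UMIs were log-normalized to 10000 counts, reduced to 2000 variable genes and 30 components without immunoglobulin genes, and clustered (20 neighbours, Louvain, resolution 0.5; igraph 0.11.9, scikit-learn 1.9.0, Python 3.11.15). Clusters were named from marker lists, with limits set after the data were seen. For a name, 3 detected markers (5 CPM) and a score of at least 0.15 were needed. The score limit did not apply to the tumor cell-like class, whose marker score was 0.0723. Tumor cell-like clusters were recognized by their chromosome profile, and 4 of 14 tumor markers were detected in them. Counts were summed per class and library. For genes of 20 or more counts, log2 ratios of class CPM (library labelled Lmo7-/- over Lmo7+/+) and exact binomial intervals were computed. Where 1 library had 0 counts the ratio was bounded with 3 counts. None was tested between genotypes. Shares used droplets thinned to 1500 UMIs. Simulated macrophage-like sums (11146 genes, 200 changed) had the true ratio within the interval for 95.3% of genes. They were drawn as Poisson counts, the setting for which the interval is built. UMIs gathered in single droplets were not simulated, so the interval is not checked for them. Scrublet, run in scanpy 1.11.5, marked 3.10% and 2.60% of droplets as doublets, including 1 of 25 Ig-rich ones. They were kept in the main values. TMM factors came from edgeR 4.0.16. All members are named. Other genes are markers or listed genes, genes that lead clusters, the 10 highest genes of Ig-rich droplets with at least 20 counts in at least 3 of them, and the 5 genes most like Igkc, with at least 100 counts in classes of at least 50 droplets. The macrophage states of at least 300 droplets, the Siglech droplets, the 3 B genes taken alone, the pairing of barcodes and the genes like Ighm were chosen after the values were seen. A further B cell gene is not reported here. The precision of every value is set by the counts printed with it.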

Additional observations from a re-analysis of the deposited data

Results flagged for a closer look

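The 12 Ig-rich droplets of the Lmo7+/+ library below the filter lie outside the class comparisons of the report. They held 4869 member UMIs, and the library labelled Lmo7-/- had 0 droplets of this kind below the filter. With the lenient filter 2 of them, with 743 member UMIs, were tumor cell-like, and the log2 ratios of that class were 2.00 for Igkc and -4.43 for Ighg2b, from 3.42 and -0.46.

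The Siglech droplets, which belong to no named class, had an Ighm UMI in 26 of 29 cases. Their Ighm level over both libraries was 1357 CPM against 31.7 CPM in the other droplets past the filter that were not Ig-rich, and their Igkc level was 905 against 5.50 CPM.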

How the results depend on the processing

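With all Ig-rich droplets left out, the log2 ratios in macrophage-like droplets were -1.11 (Igkc) and 1.52 (Ighg2b), those in tumor cell-like droplets -1.68 (Igkc) and -0.53 (Ighg2c), and Igkc made up 2.33% and 59.3% of member UMIs in macrophage-like and tumor cell-like droplets labelled Lmo7-/-, from 19.96% and 70.1%. Leaving out only the droplet with most member UMIs of each class and library gave 0.27 for Igkc and 2.08 for Ighg2b in macrophage-like droplets, with 3 members past the limit in place of 5. After the data were seen, 3 alternatives were added. The Cd300e state alone gave -0.91 (Igkc), -0.022 (Ighm) and 0.87 (Ighg2b) with 0 members past the limit, and the rest of the class -1.17, -0.65 and -0.45 with 2. Leaving out droplets of 10 or more member UMIs gave -1.03 (Igkc) and 1.90 (Ighg2b) with 3, and -1.54 (Igkc) and -0.53 (Ighg2c) in tumor cell-like droplets.

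In macrophage-like droplets a lenient filter gave -0.20 (Igkc) and 1.77 (Ighg2b) with 3 members, a strict filter -1.21, 1.45 and -0.43 (Ighm) with 2, and a resolution of 1.0 -1.12, -0.79 and -0.62 with 1. A resolution of 0.2 gave 2.07 for Igkc, TMM scaling -0.037 for Ighm, and means over droplets 2.91 for Igkc and -0.031 for Ighm. Leaving out droplets with UMIs of 2 or more different B or plasma markers removed 87.9% and 82.9% of macrophage-like droplets and gave -0.84 (Igkc), -0.20 (Ighg2b) and 0.060 (Ighm) with 0 members past the limit. Apart from the droplets removed by construction, the cause was not tested.

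A minimum of 100 member UMIs put 88.99% and 80.04% of them in Ig-rich droplets, and droplets past the filter alone 88.90% and 82.03%, with 14 Ig-rich droplets in the Lmo7+/+ library. With Ig-rich droplets included, shares of macrophage-like droplets with Ighm were 9.94% and 9.60% when thinned to 1000 UMIs, 25.5% and 21.04% at 3000 and 34.8% and 26.6% unthinned, and with Igkc 1.53% and 0.741% at 3000 and 2.87% and 1.14% unthinned. T-like Igkc was -1.87 and Igha -8.57 at a resolution of 0.2, where 10 and 5 Ig-rich droplets joined that class. In all, 173 recomputed values stayed close to their own, 74 moved further and 15 ratios of at least 1 in size changed sign. A further 5 smaller ratios changed sign, 4 of them counted among those that stayed close. No droplets were called tumor cell-like with the strict filter, a resolution of 0.2 or immunoglobulin genes in the clustering, so that those values could not be given. Members with few counts in a class are limited by depth. No paired analysis was possible because each genotype had 1 library.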
